A study of Arabidopsis thaliana with 24 samples.

Results

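The PHYTOCHROME-INTERACTING FACTORs (PIFs) are basic helix-loop-helix (bHLH) transcription factors that promote elongation of the hypocotyl in darkness, shade and warmth. Light-activated phytochromes bind most of them and trigger their turnover, and DELLA proteins, the repressors of gibberellin signaling, keep them from DNA. Several PIFs raise auxin synthesis and sensitivity, while relatives such as HFR1 and PIL1 form dimers with PIFs that bind DNA poorly.

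The family was taken as 10 Arabidopsis loci, chosen by locus identifier and not by any measured value. These are *PIF1* (AT2G20180, also PIL5, chromosome 2), *PIF3* (AT1G09530, chromosome 1), *PIF4* (AT2G43010, chromosome 2), *PIF5* (AT3G59060, also PIL6, chromosome 3), *PIF7* (AT5G61270, chromosome 5), *PIF8* (AT4G00050, also UNE10, chromosome 4), *PIL1* (AT2G46970, chromosome 2), *PIL2* (AT3G62090, chromosome 3), *HFR1* (AT1G02340, chromosome 1) and *SPT* (AT4G36930, chromosome 4). All 10 loci were measured by 10 of the 30361 transcripts of the chip in experiment "a" and by 13 of the 37118 transcripts, from 32627 loci, of the chip in experiment "b". *PIF4*, *PIF5* and *PIF7* had 2 splice forms each in "b", and the first form is reported where no other is named. *PIF1* was measured by its splice form 2 in "a" and by its form 1 in "b". Every one of these transcripts lay above the dimmest 25% of its chip.

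RNA came from dissected hypocotyls of 5-day-old seedlings, grown in long days of 16 h light and 8 h dark and moved 2 h after lights-on to 5 µM picloram, a synthetic auxin, or to DMSO, its solvent. Experiment "a" held 4 groups of wild type (Col-0), control and picloram at 30 min and at 2 h, and experiment "b" held wild type and *afb5-5*, a mutant in *AFB5*, whose product is an auxin receptor known for its role in picloram response, each as control and picloram at 2 h. Each of the 8 groups had 3 replicates, pools of at least 400 hypocotyls in "a" and about 700 in "b". In "a" the RNA was amplified and the labels give Cy5 for each control and Cy3 for each picloram sample, so an effect of the dye and one of picloram cannot be told apart within a time point. In "b" the RNA was not amplified and Cy3 was used throughout.

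Levels are log2 of array intensity, and a level of 1 gene cannot be set against that of another because their probes differ. Changes are picloram minus control on that scale, given with the standard error of limma, and "called" means an FDR under 0.05 over all transcripts of the chip. The experiments were normalized separately, so their values stand side by side and were not tested against each other. In pooled tissue, a change in the number of cells of a type and a change in RNA per cell cannot be told apart.

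The auxin-responsive gene *GH3.3* rose by 3.01 at 2 h in "a" (SE 0.59, limma adjusted p = 0.00963) and by 2.88 in wild type in "b" (SE 0.28, adjusted p = 0.000334). In *afb5-5* its change was 1.41 (SE 0.28) and was not called (limma adjusted p = 1.0). *AFB5* itself was 0.35 lower in *afb5-5* controls than in wild-type controls and was not called, and the position of its probes relative to the mutation is not given in the sources used here. At 30 min in "a" the controls differed among themselves in the level of *GH3.3*, at 14.21, 12.72 and 10.90 in replicates 1, 2 and 3. With picloram it stood at 15.26, 15.10 and 15.32. In the 3 controls at 30 min the family was also more variable than elsewhere, with a median SD of 0.49 over the 10 loci against 0.25 over all transcripts.

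After 2 h in experiment "a", *PIF3*, *PIL2* and *PIF8* were higher in the picloram samples (Cy3) than in the controls (Cy5) of wild type, by 2.32-fold, 3.70-fold and 1.94-fold. No family member was called lower, and *PIF4* and *PIF5*, known for their part in hypocotyl growth around the end of the night, were not called. The 3 called members of 10 stand against 11.4% of all transcripts called in this comparison, and 5.53% called higher. Of the 10 members, 5 had an unadjusted p under 0.05, against 25.9% of all transcripts, and 7 did not overlap between picloram and control, against 36.2%. The median change over the members was 0.39, and that over all transcripts was -0.01.

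*PIF3* encodes the founding PIF, which was found by its binding to phytochrome and holds back greening in the dark. Its control levels at 2 h were 13.41, 13.03 and 13.33, and its picloram levels were 14.43, 14.43 and 14.56. Every picloram sample lay more than 1 log2 unit above every control. The change was 1.22 (SE 0.21, limma adjusted p = 0.00584), and it stayed between 1.10 and 1.29 when any 1 of the 6 samples was left out.

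*PIL2*, also known as PIF6, is best known from developing seeds, where it affects dormancy. It stood at 9.76, 9.66 and 9.62 in the 2 h controls and at 11.64, 11.70 and 11.36 with picloram. The gap between the highest control and the lowest picloram sample was 1.60, the widest in the family. Its change of 1.89 (SE 0.35, limma adjusted p = 0.00780) was the largest of the 10.

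*PIF8* encodes a PIF that represses responses to far-red light. Controls lay at 12.71, 12.54 and 12.54 and picloram samples at 13.43, 13.50 and 13.72, again without overlap. The change was 0.95 (SE 0.25, limma adjusted p = 0.0337). Leaving out any 1 of the 6 samples ended the call, with changes of 0.87 to 1.01 and adjusted p from 0.0792 to 0.106. The share of all transcripts called also fell in these fits, from 11.4% to between 4.79% and 8.83%. The spread of *PIF8* in the 30 min controls (SD 0.57) enters the error. Its SD at 2 h was 0.09 in the controls and 0.15 with picloram.

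*PIF7*, a PIF that drives shade-induced auxin synthesis, moved from 10.06, 10.25 and 9.75 in the controls to 10.98, 10.87 and 10.36 with picloram. The change of 0.71 (SE 0.24) was not called (limma adjusted p = 0.0767). Samples of the same replicate number deviated together within a time point, and with that number as a block within time points the change was called (adjusted p = 0.0317), as were 18.8% of all transcripts in that fit. All 3 same-numbered differences were positive, at 0.92, 0.61 and 0.60. Among the fits with 1 sample left out, it was called only without replicate 3 of the picloram group, the lowest of its group. There the change was 0.90 (adjusted p = 0.0460), and 8.83% of all transcripts were called.

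*HFR1*, an atypical bHLH protein that binds PIF4 and PIF5 and limits their access to DNA, was the member with the lowest change. Its 3 controls at 2 h lay together at 13.51, 13.58 and 13.50, and its picloram samples lay together at 12.52, 12.45 and 12.63. The groups were separated by 0.87 log2 units with little spread inside each. The change was -0.99 (SE 0.43) and was not called in the fit to all 12 samples (limma adjusted p = 0.166), where the wide spread of *HFR1* at 30 min enters the error. It was called with the replicate number as a block within time points (adjusted p = 0.0344) and in a fit to the 2 h samples alone (adjusted p = 0.00606, with 14.6% of all transcripts called), but not with the number as a block over all 12 samples (adjusted p = 0.132).

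*PIF4* links warmth and shade to auxin synthesis. Its 2 h levels were 14.46, 14.50 and 14.49 in the controls and 14.74, 14.70 and 14.43 with picloram, so the groups overlapped. The change was 0.14 (SE 0.17, limma adjusted p = 0.668), with a 95% interval from -0.23 to 0.51.

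*PIF5*, its close relative in rhythmic growth, stood at 13.65, 13.55 and 13.46 in the controls and at 13.95, 13.97 and 13.66 with picloram. The groups were separated by only 0.01. The change was 0.31 (SE 0.26, limma adjusted p = 0.521), with a 95% interval from -0.27 to 0.88. The spread of *PIF5* in the 30 min controls (SD 0.62) enters this error. Its SD at 2 h was 0.09 in the controls and 0.17 with picloram.

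The remaining members showed no called change at 2 h in "a". *PIL1*, a gene that shade induces within minutes and whose product opposes PIFs, changed by 0.47 (SE 0.33, limma adjusted p = 0.415) without overlap between its groups. *PIF1*, a repressor of seed germination, changed by 0.05 (SE 0.20). *SPT*, which acts in carpel growth and in germination, changed by -0.25 (SE 0.36), and its 3 picloram samples ranged from 8.21 to 9.97.

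Markers of root hairs moved in the same samples. None of the 3 markers was called, but their changes at 2 h in "a" were 2.67 for *EXPA7* (limma adjusted p = 0.0502), 2.60 for *EXPA18* and 1.24 for *COBL9*, and their summed intensity ranged from 332 to 1614 in the controls and from 872 to 5925 with picloram. In wild type in "b" the sum ranged from 1269 to 2321 in the controls and from 1056 to 1325 with picloram. None of these markers was at 0 in any group, and their part in the results of "a" was not tested. No marker of shoot meristem, guard cell or green tissue was called in either experiment at 2 h.

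**Figure D1:**
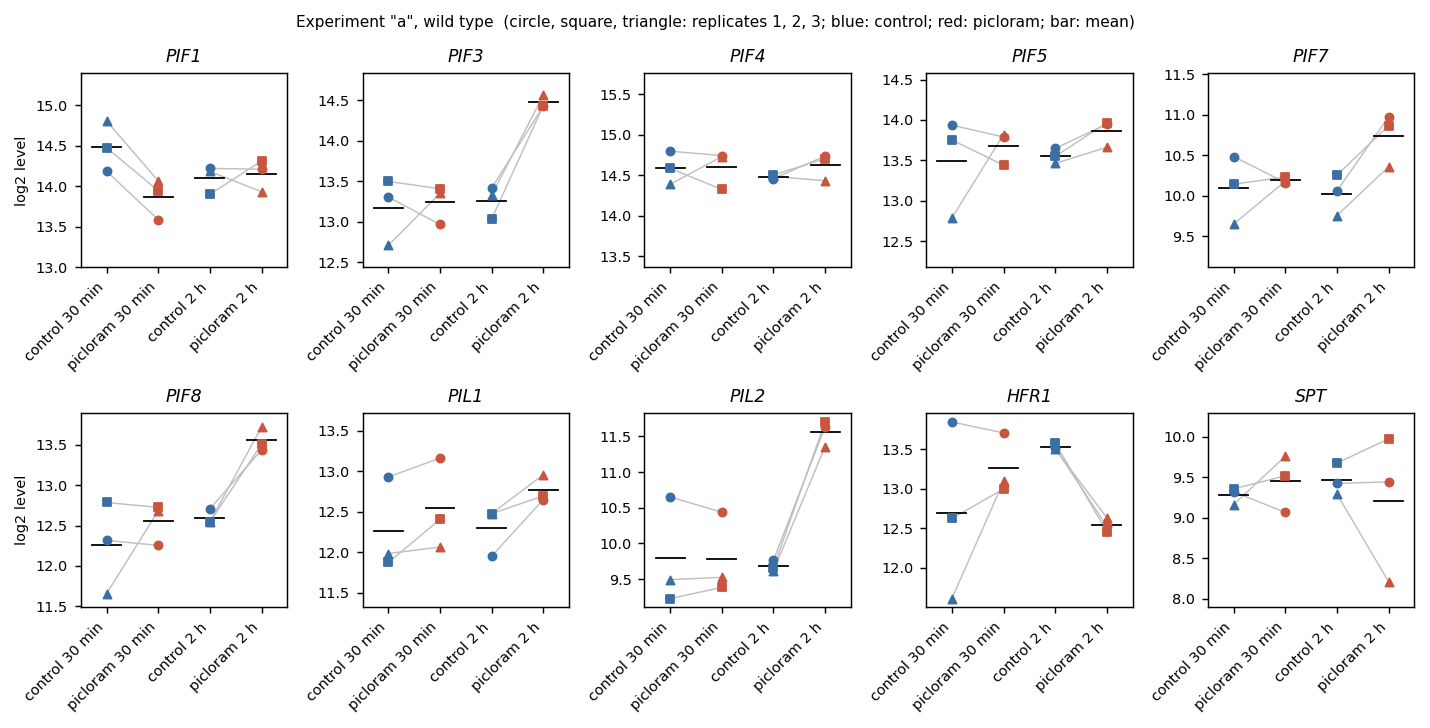
Log2 level of each of the 10 genes (vertical axis) in the 4 groups of experiment "a" (horizontal axis). Each point is 1 sample, grey lines join samples of the same replicate number, and bars are group means of 3. *PIF3*, *PIL2* and *PIF8* stood higher with picloram at 2 h, and *HFR1* lay near 12.5 with picloram against 13.5 in the controls.

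At 30 min in "a", with the same dyes as at 2 h, none of the 10 members was called by limma, against 0.208% of all transcripts, and 1 had an unadjusted p under 0.05, against 8.08%. The 3 genes called at 2 h had changes of 0.07 (*PIF3*, SE 0.21), -0.01 (*PIL2*, SE 0.35) and 0.30 (*PIF8*, SE 0.25). *PIF3* stood at 13.30, 13.50 and 12.71 in the controls and at 12.96, 13.41 and 13.35 with picloram. *PIL2* stood at 10.65, 9.23 and 9.49 in the controls and at 10.44, 9.38 and 9.52 with picloram, where replicate 1 was high in both groups. *PIF8* stood at 12.32, 12.78 and 11.66 in the controls and at 12.25, 12.72 and 12.68 with picloram. All 3 genes overlapped between the groups.

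The member with the unadjusted p under 0.05 at 30 min was *PIF1*. It was the only one of the 10 without overlap, where 11.6% of all transcripts had none. Its levels were 14.18, 14.48 and 14.81 in the controls and 13.59, 13.94 and 14.07 with picloram. The change of -0.62 (SE 0.20) did not pass the adjustment (limma adjusted p = 0.380), and at 2 h it was 0.05. Its control level changed by -0.39 (SE 0.20) from 30 min to 2 h, without a call.

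*HFR1* had the widest spread at 30 min. The controls lay at 13.84, 12.62 and 11.61, in the same order as *GH3.3* in these 3 samples, and the picloram samples lay at 13.70, 12.99 and 13.09. *PIF4*, *PIF5* and *PIF7* had that order in these controls too, and *PIF1* had the reverse order. The *HFR1* change of 0.57 (SE 0.43) was smaller than the spread between its controls, whose SD was 1.12. The other members changed by 0.01 (*PIF4*), 0.19 (*PIF5*), 0.10 (*PIF7*), 0.28 (*PIL1*) and 0.17 (*SPT*) at 30 min, each within its error.

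The response at 2 h was then set against the response at 30 min within one fit. This difference of responses holds the dyes equal at both times. It was 1.90 for *PIL2* (SE 0.50, limma adjusted p = 0.0952) and 1.14 for *PIF3* (SE 0.30, adjusted p = 0.0969), and neither was called, against 0.846% of all transcripts. Of the 10 members, 4 had an unadjusted p under 0.05, against 16.4% of all transcripts. With the replicate number as a block within time points *PIL2* was called (adjusted p = 0.0109), as were 4.11% of all transcripts. With the block over all 12 samples neither gene was called (adjusted p = 0.0687 for *PIL2* and 0.130 for *PIF3*). With a variance trend and robust fit both *PIF3* (adjusted p = 0.0303) and *PIL2* (adjusted p = 0.0431) were called, with 3.81% of all transcripts. The difference was -1.57 for *HFR1* (SE 0.60, adjusted p = 0.221), 0.67 for *PIF1* (SE 0.29, adjusted p = 0.270), 0.65 for *PIF8* (SE 0.36) and 0.61 for *PIF7* (SE 0.33).

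Control levels at 2 h were also set against those at 30 min. None of the 10 members was called between these controls by limma, against 0.356% of all transcripts, and none had an unadjusted p under 0.05, against 16.5%. Changes ranged from -0.39 for *PIF1* to 0.84 for *HFR1* (SE 0.43, limma adjusted p = 0.356), whose 95% interval ran from -0.09 to 1.77. With the spread of the 30 min controls, changes of this size in the controls were not resolved.

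In wild type in experiment "b", where RNA was not amplified and 1 dye was used, none of the 10 members was called by limma after 2 h on picloram, against 2.17% of all transcripts (1.71% called higher), and 1 had an unadjusted p under 0.05, against 14%. That member was *PIF8*. Its change of 0.92 (SE 0.30) lay beside 0.95 in "a". *PIF3* and *PIL2*, the other genes called in "a", changed by -0.01 and 0.13 in "b". The median change over the members was -0.00, and that over all transcripts was -0.03.

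*PIF8* stood at 7.49, 8.17 and 7.89 in the wild-type controls and at 8.20, 9.41 and 8.67 with picloram. Its control levels lay not far above 7.19, the bound of the dimmest 25% of transcripts by mean level in "b". It was the only member without overlap, where 20.9% of all transcripts had none, and the gap was 0.04. The limma adjusted p was 0.192. Wild-type samples of the same replicate number deviated together, and in a fit to the 6 wild-type samples with that number as a block *PIF8* was called (adjusted p = 0.0109), as were 16.1% of all transcripts in that fit. With the number as a block over all 12 samples of "b" it was not called (adjusted p = 0.0827). Its 3 same-numbered differences were 0.72, 1.25 and 0.78. Without 1 sample in turn the change ranged from 0.59 to 1.20 and was not called.

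*PIF3* in "b" stood at 9.90, 10.49 and 10.41 in the wild-type controls and at 9.96, 10.43 and 10.38 with picloram. The groups were nearly superimposed, with replicate 1 the lowest in both. The 95% interval of the change ran from -0.64 to 0.62, and that in "a" from 0.74 to 1.69.

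*PIL2* stood at 10.32, 10.74 and 10.43 in the controls and at 10.49, 10.68 and 10.70 with picloram, with overlap. Its change of 0.13 (SE 0.16, limma adjusted p = 0.735) had a 95% interval from -0.22 to 0.48, where that in "a" ran from 1.11 to 2.67. Whether the amplified RNA, the dyes, the probes or the tissue of the experiments bear on this was not tested.

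*PIF4* was among the most precisely measured members in "b". Its first form stood at 12.41, 12.55 and 12.60 in the controls and at 12.62, 12.53 and 12.61 with picloram. The change was 0.07 (SE 0.12, limma adjusted p = 0.818), with a 95% interval from -0.19 to 0.32. The second form changed by -0.01 (SE 0.14), with an interval from -0.32 to 0.29.

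*PIF5* stood at 12.43, 12.72 and 12.57 in the controls and at 12.24, 12.55 and 12.53 with picloram. Each picloram sample lay below the control of the same number, and the groups overlapped. The change was -0.14 (SE 0.17, limma adjusted p = 0.731), with a 95% interval from -0.50 to 0.22. The second form stood at 12.28, 12.45 and 12.37 in the controls and at 12.01, 12.28 and 12.29 with picloram, a change of -0.17 (SE 0.15).

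*PIF7* and *HFR1*, which were called in "a" under the block within time points, overlapped between the groups in "b". *PIF7* stood at 8.81, 9.96 and 9.89 in the controls and at 9.09, 9.79 and 9.77 with picloram. Replicate 1 was low in both groups, and the change was -0.00 (SE 0.31), or -0.12 (SE 0.25) for the second form. *HFR1* stood at 10.30, 10.78 and 10.40 in the controls and at 9.94, 10.39 and 10.44 with picloram. Its change of -0.23 (SE 0.19, limma adjusted p = 0.594) had the sign of that in "a", and its groups overlapped. *SPT* changed by -0.29 (SE 0.19), *PIL1* by 0.03 (SE 0.18) and *PIF1* by -0.00 (SE 0.30).

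**Figure D2:**
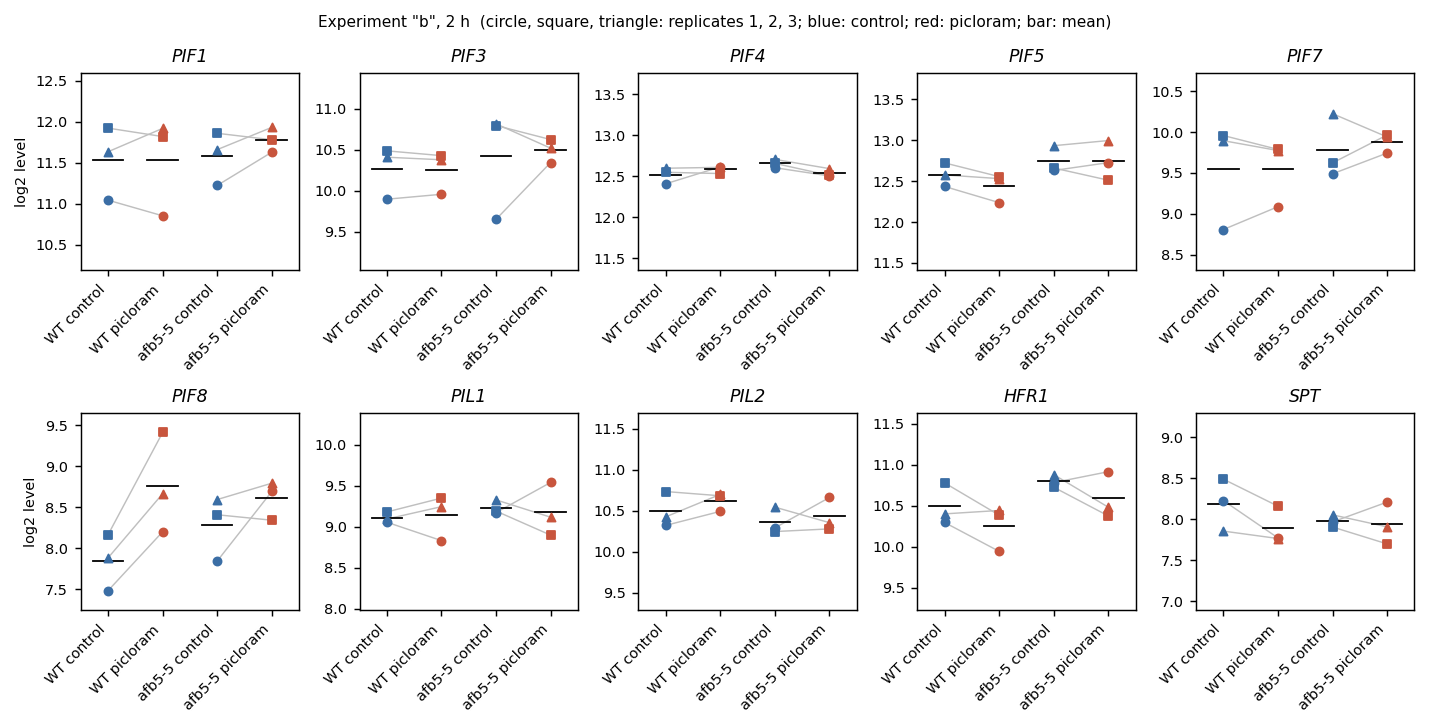
Log2 level of each of the 10 genes, first splice form (vertical axis), in the 4 groups of experiment "b" at 2 h (horizontal axis). Each point is 1 sample, grey lines join samples of the same replicate number, and bars are group means of 3. Only *PIF8* separated the wild-type groups, by 0.04 log2 units, and most groups of the other genes overlapped.

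In *afb5-5*, none of the 10 members was called after 2 h on picloram and none had an unadjusted p under 0.05. No transcript of the chip was called in this comparison by limma (0%), and 1.03% had an unadjusted p under 0.05. The members' changes ranged from -0.20 for *HFR1* (SE 0.19) to 0.33 for *PIF8* (SE 0.30). *PIF8* stood at 7.85, 8.41 and 8.60 in the mutant controls and at 8.69, 8.34 and 8.80 with picloram, so the groups overlapped. *PIF4* changed by -0.12 (SE 0.12) in its first form, without overlap between the groups. No other member lacked overlap in the mutant, where 3.49% of all transcripts had none. The second form of *PIF4* had a mean of 12.73 in the mutant controls and of 12.75 with picloram, with overlap. *PIF5* changed by 0.00 (SE 0.17), *PIF3* by 0.07 (SE 0.29) and *PIL2* by 0.07 (SE 0.16).

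The genotypes were then compared directly. Among controls, none of the 10 members was called between *afb5-5* and wild type and none had an unadjusted p under 0.05, where 0.911% of all transcripts did and none was called by limma (0%). The highest difference was 0.44 for *PIF8* (SE 0.30), higher in *afb5-5*. Under picloram, no member was called by limma, against 1.24% of all transcripts, and none had an unadjusted p under 0.05, against 9.01%. The smallest adjusted p was 0.664, for *PIF5*, which was 0.30 lower in wild type (log2 difference -0.30, SE 0.17).

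The test of the difference between the responses of the genotypes called none of the 10 members, against 0.102% of all transcripts, and none had an unadjusted p under 0.05, against 4.09%. The auxin-responsive genes *GH3.3* and *IAA19* were not called in this test either, although their median difference was 1.68. For *PIF8* the wild-type response exceeded that of *afb5-5* by 0.59 (SE 0.43), with a 95% interval from -0.35 to 1.52. With 3 samples a group, this interval holds both 0 and a difference as large as the whole wild-type response. Mean *PIF8* levels were 7.85 in wild type and 8.28 in *afb5-5* among controls, and 8.76 and 8.61 under picloram. The genotypes thus lay further apart in the controls than under picloram. For the first form of *PIF4* the difference between the responses was 0.19 (SE 0.16), and for *PIF5* it was -0.14 (SE 0.23). Mean levels of the second *PIF4* form went from 12.70 to 12.69 in wild type and from 12.73 to 12.75 in *afb5-5*. The sign of its difference was thus the opposite of that of the first form.

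**Figure D3:**
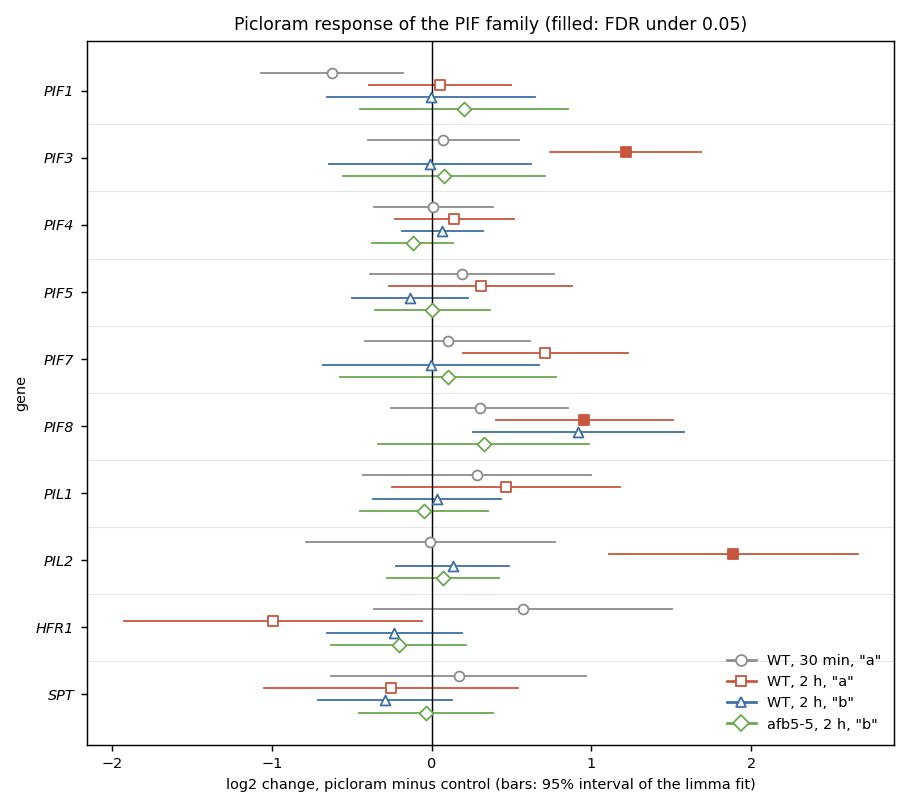
Log2 change on picloram (horizontal axis) of each of the 10 genes (vertical axis) in the 4 picloram comparisons, with the 95% interval of the limma fit, first splice form in "b". Filled points are called at an FDR under 0.05. They are *PIF3* (1.22), *PIF8* (0.95) and *PIL2* (1.89) at 2 h in "a", and the interval of *PIF8* in wild type in "b" (0.26 to 1.58) also lies above 0.

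The genes around the PIFs were read from 5 lists. The shares of all transcripts called, given above for each comparison, apply to these lists too. Light receptors and the proteins that carry their signal to the nucleus had no member called at 2 h in "a" (9 measured, median change 0.27) and 1 of 10 called higher in wild type in "b" (median 0.15). That gene was *FHL*, which helps to import phytochrome A into the nucleus, with a change of 2.16 in "b" (SE 0.30, limma adjusted p = 0.00290) and -0.04 in "a". *CRY1*, a blue-light receptor, changed by 0.73 in "a" (adjusted p = 0.0537) and by -0.11 in "b". *PHYB*, the receptor that most PIFs bind, changed by -0.07 and -0.04, and *HMR*, needed for phytochrome-driven PIF turnover, changed by -0.29 and 0.48.

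Of 14 proteins that restrain PIFs or their transcription, 5 were called higher and none lower at 2 h in "a" (median 0.20), and 2 were called higher and none lower in wild type in "b" (median 0.04). *GAI* and *RGL1*, which encode DELLA repressors, were called in both experiments. *GAI* rose by 1.15 (SE 0.21) in "a" and by 1.11 (SE 0.22) in "b", and *RGL1* rose by 0.61 (SE 0.17) and 1.83 (SE 0.41). In "a" the DELLA genes *RGA* (0.75) and *RGL3* (2.34) and the clock gene *TOC1* (0.87), whose product represses PIF activity, were also called. In "b" their changes were -0.10, 1.34 and 0.18, without a call. None of the 14 was called in *afb5-5*, where no transcript of the chip was called. The changes there were 0.18 for *GAI* and 0.31 for *RGL1*.

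The COP1/SPA complex and DET1 act on the stability of PIFs and HFR1 in seedlings. Of these 6 genes, 1 was called at 2 h in "a" (median 0.25) and none in wild type in "b" by limma (median 0.13). The called gene was *DET1*, which fell by 0.64 in "a" (SE 0.16, limma adjusted p = 0.0267) and changed by -0.11 in "b". *SPA1* and *SPA2* changed by 0.43 and 0.38 in "a" and by 0.15 and 0.24 in "b", and *SPA3* changed by 0.17 and -0.46, all without a call.

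The helix-loop-helix partners and relatives of PIFs held the only list gene called at 30 min. Of 13 genes, 1 was called higher at 30 min, 6 at 2 h in "a" (median 1.00) and 4 in wild type in "b" (median 0.47), and none was called lower in these comparisons. *KDR* and *PRE5*, which encode small proteins without a DNA-binding region that sequester inhibitory bHLH factors, were called at 2 h in both experiments. *PRE5* was called at 30 min already, by 1.81 (SE 0.21, limma adjusted p = 0.00503), and changed by 1.75 and 1.55 at 2 h in "a" and "b".

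*KDR*, which is known to bind HFR1, stood at 11.09, 11.24 and 11.12 in the wild-type controls of "b" and at 12.99, 13.07 and 13.02 with picloram. In *afb5-5* it stood at 10.90, 10.75 and 10.94 in the controls and at 11.11, 10.80 and 10.97 with picloram. The wild-type groups lay far apart and the mutant groups overlapped. Its rise was 2.63 in "a" (SE 0.49) and 1.88 in "b" (SE 0.13), and the wild-type response exceeded that of *afb5-5* by 1.79 (SE 0.18, limma adjusted p = 0.00266). It was the only gene of the 5 lists called in that test.

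Of the others in this list, *PAR1*, *HEC1*, *HEC2* and *PRE2* were called in "a" only, and *PAR2* and *PRE1* in "b" only. PAR1 and PAR2 are HLH proteins that inhibit PIF4. *PAR1* rose by 1.00 in "a" and changed by 0.47 in "b", and *PAR2* changed by 0.75 in "a" and rose by 2.29 in "b". *PRE2* rose by 2.29 in "a" and changed by 1.36 in "b" (limma adjusted p = 0.0575). Being called in one experiment and not in the other does not show that the experiments differ.

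Among genes described as PIF targets, some rose at 2 h. Of the family, *PIF3*, *PIL2* and *PIF8* were called higher in "a", and *PIF4* and *PIF5* were called in neither experiment. Whether any PIF bears on the changes of the targets was not tested. Of 16, 7 were called higher at 2 h in "a" (median 0.78) and 6 in wild type in "b" (median 0.54), and none lower. None was called at 30 min, against 0.208% of all transcripts, or in *afb5-5*, where no transcript of the chip was called. The 4 called in both experiments were *IAA19*, an Aux/IAA repressor of auxin signaling (1.79 in "a" and 2.28 in "b"), *CKX5*, a cytokinin oxidase (1.83 and 0.81), *LNG1*, a regulator of longitudinal cell growth (2.81 and 0.73), and *SNRK2.5*, a protein kinase (0.85 and 1.12). In *afb5-5* their changes were 0.39 (*IAA19*), -0.20 (*CKX5*), 0.41 (*LNG1*) and 0.41 (*SNRK2.5*). *IAA19* is also known as a direct target of auxin signaling.

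*SOM*, a repressor of seed germination that PIF1 activates in seeds, was the target with the largest change in "a". It stood at 9.77, 9.69 and 9.56 in the 2 h controls and at 13.56, 13.62 and 13.55 with picloram. Its rise of 3.91 (SE 0.27, limma adjusted p = 0.000114) exceeded that at 30 min by 4.06 (SE 0.38, adjusted p = 0.00714), the only gene of the 5 lists called in that test. In wild type in "b" it stood at 5.94, 6.73 and 5.88 in the controls and at 6.22, 7.42 and 6.59 with picloram, a change of 0.56 (SE 0.34) without a call. *SOM*, like *PIF3* and *PIL2*, had a wide separation in "a" and overlapping groups in "b". Apart from 7.42, these *SOM* levels in "b" lay below 7.19, the bound of the dimmest 25% of transcripts by mean level. *PIF3* and *PIL2* lay above that bound, so the small change of *SOM* in "b" cannot be read like theirs.

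Under picloram, wild type stood above *afb5-5* for 3 of the 16 targets, *IAA19* (2.25), *SNRK2.5* (0.94) and *CKX5* (0.82), and for 5 of the 13 HLH genes, *KDR* (2.07), *PAR2* (2.04), *PRE1* (1.67), *PRE2* (1.51) and *PRE5* (1.44), and for *FHL* (1.75) of the light receptor list, all called by limma. None of the 10 family members was called in that comparison.

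**Figure D4:**
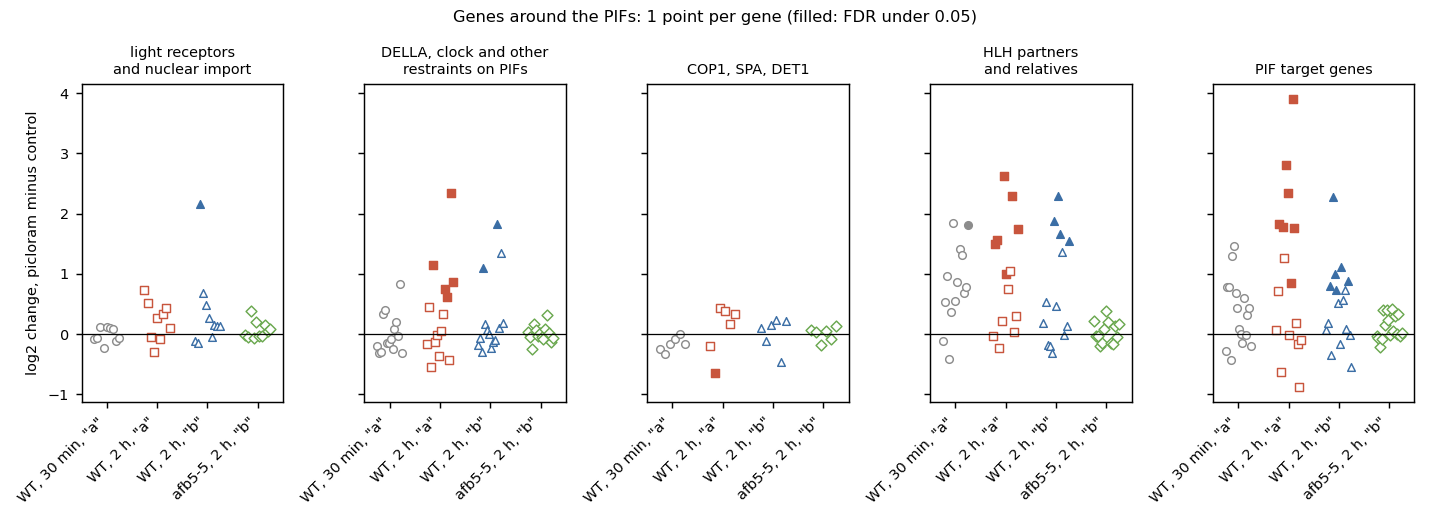
Log2 change on picloram (vertical axis) of each measured gene of the 5 lists, 1 panel per list, in the 4 picloram comparisons (horizontal axis). Filled points are called at an FDR under 0.05. In the panel of target genes 7 points are filled at 2 h in "a" and 6 in wild type in "b". No point of any list is filled in *afb5-5*, where no transcript of the chip was called.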

How the data were processed

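The deposited values are linear array intensities, 1 per transcript, background-corrected by the authors, whose methods name RMA, with TAIR8 ("a") or TAIR10 ("b") annotation. Array medians differed by up to 1.72-fold in "a", which was therefore quantile normalized on the log2 scale here, and by 1.03-fold in "b", which was used as deposited after log2. Differences between group means were tested in R 4.3.3 with lmFit and eBayes of limma 3.58.1, 1 fit per experiment to all 12 samples, with Benjamini-Hochberg adjustment over all transcripts, no filter and no covariate. The fit was tested on simulated data.

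Deviations of same-numbered samples from their group means correlated at 0.34 to 0.60 within the time points of "a" and at 0.38 to 0.67 in wild type of "b", so the numbers were taken to pair these samples. In *afb5-5* the range was 0.04 to 0.18, and the numbers were not taken to pair samples there. Between wild type and *afb5-5* under the same treatment it was -0.70 to 0.69. The main fits and their calls used no block on these numbers, which entered only the alternatives named as blocks.

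All 10 members are named, with the list genes called in wild type at 2 h in both experiments. From lists without such a gene, the 2 highest and the 2 lowest by mean change are named. The choice of further list genes was made with their values in view. Members and lists were chosen with earlier results of these data known. Symbols and chromosomes are those of RefSeq TAIR10.1 (10 of 10 matched). Alternatives were other normalizations, blocks, sample subsets and filters, a variance trend and 1 sample left out. The number of arrays limits the precision. Tables and figures used pandas 2.3.3 and matplotlib 3.10.9 in Python 3.11.15.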

Additional observations from a re-analysis of the deposited data

Results flagged for a closer look

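*PIF5* was flagged because its 3 same-numbered pairs moved one way in wild type at 2 h in "a" and the other way in "b". Its differences between picloram and control were 0.30, 0.42 and 0.20 in "a", with a mean of 0.31, and -0.20, -0.17 and -0.04 in "b", with a mean of -0.14. The second splice form in "b" gave -0.27, -0.17 and -0.08. Neither change was called, and the difference between the experiments was not tested, since they were normalized separately.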

How the results depend on the processing

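Of 1270 log2 changes of members recomputed under other settings, 1255 kept their side of the threshold, 6 lost a call and 9 gained one, and no called change reversed its sign. Of the 1222 called in neither setting, 91 had the other sign. With the replicate number as a block within each time point, the called members at 2 h in "a" went from 3 to 5, while the share of all transcripts called went from 11.4% to 18.8%. In the difference between the 2 h and 30 min responses the same block took the called members from 0 to 1 and the share from 0.846% to 4.11%, and a variance trend with a robust fit took them from 0 to 2 and the share to 3.81%. In "b", the block in a fit to only the 6 wild-type samples took the called members from 0 to 1 and the share from 2.17% to 16.1%. Other blocks changed no other count by over 1.5 times, although a block over all 12 samples also called *PIF7* at 2 h in "a" (adjusted p = 0.0377). With 1 sample left out, 2 to 3 members were called at 2 h in "a", with 4.79% to 8.83% of all transcripts. In every other comparison 0 members were called. For the control at 2 h against 30 min, the block within time points gives no value, because each block holds 1 time point. The other settings gave the same counts of called members to within 1.5 times. Precision was limited by 3 arrays a group, and at 30 min in "a" by the spread of the controls.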
